A study of Mus musculus with 12 samples.

Results

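The genes described here are 9 that carry out heme synthesis and the iron uptake that feeds it: Alas1, Alad, Uros, Urod, Cpox, Ppox, Fech, Tfrc and Slc25a37. They were chosen by symbol, each symbol was matched to its Ensembl identifier, and all 9 were found among the 56748 gene identifiers counted in every library. The libraries are bulk RNA-seq of Lin-Sca+Kit+ (LSK) cells, the bone marrow fraction that holds haemopoietic stem and multipotent progenitor cells, sorted from mice that carried a transplant. All 12 libraries came from SCLtTA/BCR-ABL (DTG) donor cells, in which an Scl-driven transactivator switches on human BCR::ABL1 in primitive haemopoietic cells once tetracycline (TET) is taken away. The donor cells (CD45.2) were a frozen pool of marrow from many DTG mice of both sexes, and they were given to irradiated B6.SJL recipients (CD45.1) aged 8 to 12 weeks. Every recipient drank TET for 2 weeks after transplantation. The CML 2wk group (n = 6) then spent 2 weeks without TET and expressed BCR::ABL1, whereas the CTRL group (n = 6) stayed on TET. The labels do not say whether each library came from a single recipient, and the replicates share their donor pool, so the p-values measure the spread between these libraries only.

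Heme is built in a chain of enzymatic steps that starts and ends in the mitochondrion and passes through the cytosol in between. The initial step, in which glycine and succinyl-CoA are joined to 5-aminolevulinate, is run by Alas1 in most cells and by Alas2 in erythroid cells, and it is known as the rate-limiting step. Iron reaches the cell bound to the carrier protein transferrin, is taken in through the transferrin receptor and released in the endosome, and is carried across the inner mitochondrial membrane by mitoferrins before ferrochelatase inserts it into protoporphyrin.

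Of the 9 genes, 3 were higher in CML 2wk than in CTRL (Tfrc, Alas1 and Uros), 3 were lower (Ppox, Cpox and Slc25a37) and 3 did not pass the threshold (Alad, Urod and Fech). The test was edgeR's quasi-likelihood test with a Benjamini-Hochberg adjusted p under 0.05, fitted over all 18438 genes that passed a filter on low counts. All 9 passed that filter. The groups differed widely across the genome: 59.5% of all genes tested passed this threshold, 30.6% as higher and 29.0% as lower, so 6 of 9 is a share near the background. The CPM values (counts scaled to a total of 1000000 per library, with TMM factors) of the groups did not overlap for 2 higher genes and 1 lower gene, against 16.9% of all genes as higher and 20.8% as lower. The median log2 fold change of the 9 genes was 0.14, and that of all genes tested was 0.07.

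**Figure D1:**
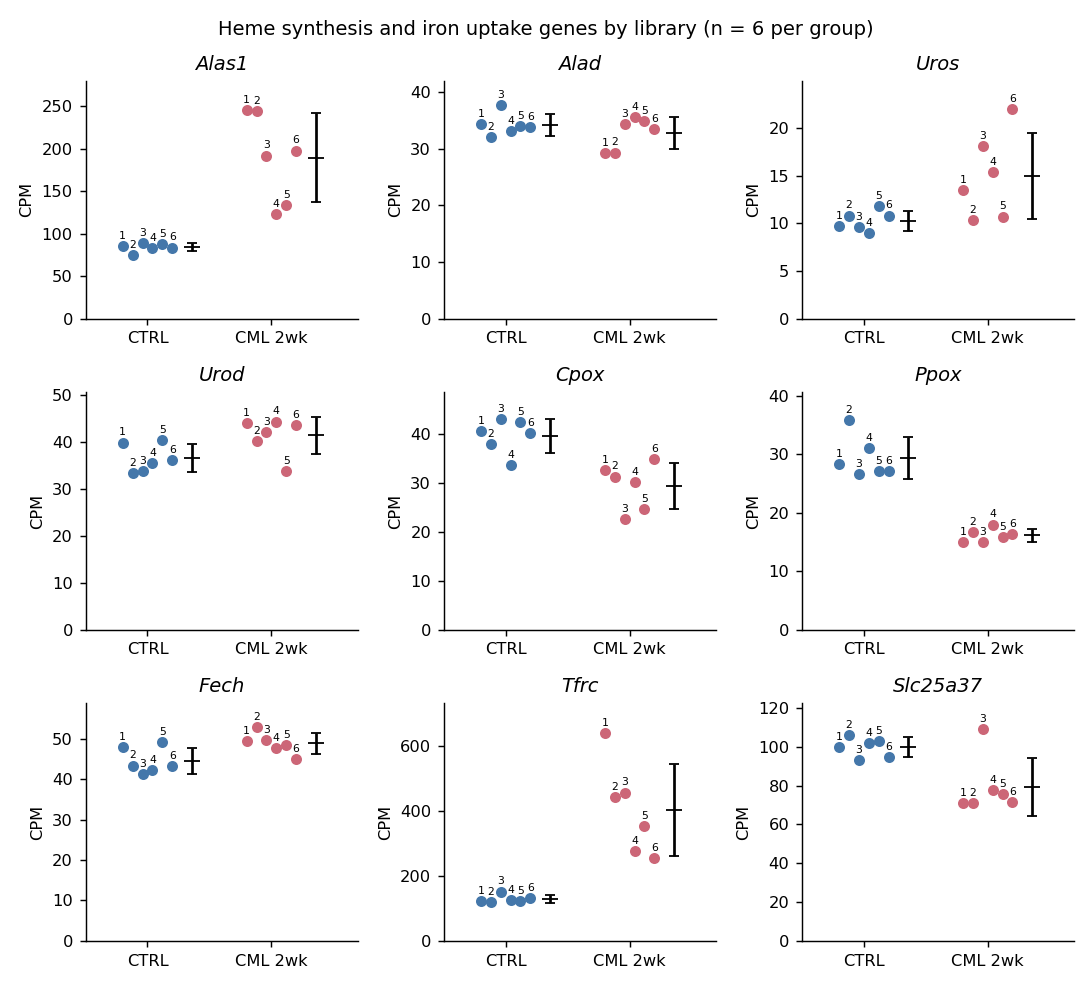
CPM of the 9 genes in each library of CTRL (blue) and CML 2wk (red), with replicate numbers beside the points and black bars for the mean and SD (n = 6 per group); each vertical axis starts at 0. Tfrc and Alas1 were higher in every CML 2wk library than in any CTRL library, Ppox was lower in every one, and CML 2wk replicate 3 stood above the other CML 2wk libraries for Slc25a37.

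Tfrc (ENSMUSG00000022797), the receptor that brings transferrin-bound iron into the cell, moved most. In CTRL the lowest library was at 119 CPM, the median at 125 and the highest at 152, and in CML 2wk the lowest was at 255, the median at 398 and the highest at 640. Every CML 2wk library lay above every CTRL library, with replicate 1 the highest and replicate 6 the lowest of the CML 2wk libraries. The means were 129 ± 12.0 CPM in CTRL and 404 ± 142 CPM in CML 2wk (SD, n = 6 each). The log2 fold change was 1.65 (SE 0.185, 95% interval 1.25 to 2.04; edgeR adjusted p = 3.1e-06), a 3.13-fold higher level. Of all genes tested, 97.7% had a smaller log2 fold change than Tfrc.

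Tfrc mRNA is known for stem-loops called iron-responsive elements in its 3' UTR, which iron regulatory proteins bind when iron is scarce. They are shown here because Tfrc had the largest change of the 9 genes. A search of GENCODE transcripts for the element's hairpin (a bulged C, 5 paired bases and the loop CAGTGN) found 4 matches in the 4890-base transcript Tfrc-201, all beyond its coding sequence at transcript positions 141 to 2429. The 30-base stretches below have the bulged C and the loop in capitals, and their names give the transcript position of the bulged C. The search found no match in the longest coding transcript of any of the other 8 genes, and 0.725% of all 58797 protein-coding transcripts held at least 1 match. Alas2, the erythroid enzyme, had 1 match before its coding sequence, shown last.
Tfrc-201 position 3321: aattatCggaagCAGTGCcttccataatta
Tfrc-201 position 3700: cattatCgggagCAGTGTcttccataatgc
Tfrc-201 position 3765: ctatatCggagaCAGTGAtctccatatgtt
Tfrc-201 position 3812: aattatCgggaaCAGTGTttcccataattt
Alas2-201 position 90: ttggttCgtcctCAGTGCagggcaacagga

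Neither of the proteins that read these elements passed the threshold. Aco1 (iron regulatory protein 1) was at 40.8 ± 2.45 CPM in CTRL and 37.2 ± 7.21 CPM in CML 2wk, with a log2 difference of -0.13 (95% interval -0.36 to 0.10; edgeR adjusted p = 0.315). Ireb2 (iron regulatory protein 2) was at 165 ± 8.52 and 162 ± 10.4 CPM, with a log2 difference of -0.02 (95% interval -0.15 to 0.10; edgeR adjusted p = 0.741). Fbxl5, the ubiquitin ligase subunit that removes iron regulatory protein 2 when iron is plentiful, was higher in CML 2wk by a log2 fold change of 0.44 (SE 0.0610; edgeR adjusted p = 2.09e-05). These are levels of mRNA, and neither iron nor the binding of these proteins was measured.

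Tfr2, the paralogous receptor that senses transferrin-bound iron, went the other way from Tfrc. It ranged from 76.8 to 88.9 CPM in CTRL and from 36.9 to 60.2 CPM in CML 2wk, with no overlap (log2 fold change -0.82, SE 0.107; edgeR adjusted p = 1.32e-05). Per kilobase of exon, the ratio of Tfrc to Tfr2 was 1.00 to 1.38 over the CTRL libraries (median 1.05) and 3.65 to 12.1 over the CML 2wk libraries (median 5.35). By this measure the pair was nearly level in CTRL, and Tfrc exceeded Tfr2 in every CML 2wk library. The ratio depends on the lengths used, which join all annotated exons (6185 bases for Tfrc and 4336 for Tfr2). No other length was tried for Tfr2. In CPM without lengths, the CTRL means were 129 for Tfrc and 82.8 for Tfr2. Hfe, which binds the transferrin receptor, rose from 7.84 ± 0.722 to 26.8 ± 8.17 CPM (log2 fold change 1.77, SE 0.169; edgeR adjusted p = 7.03e-07), again with no overlap.

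Slc25a37 (ENSMUSG00000034248), mitoferrin-1, which carries iron into the mitochondrion, was lower in CML 2wk. The lowest, median and highest CTRL libraries were at 93.3, 101 and 106 CPM, and those of CML 2wk at 70.8, 73.4 and 109 CPM. Of the CML 2wk libraries, 5 were below all of CTRL, while replicate 3, at 109 CPM, was above all of CTRL and far from the next highest at 77.5 CPM. The log2 fold change was -0.33 (SE 0.0973, 95% interval -0.54 to -0.13; edgeR adjusted p = 0.0086). Without CML 2wk replicate 3 it was -0.45 (edgeR adjusted p = 1.2e-05), and with upper-quartile scaling it was -0.26 and missed the threshold (edgeR adjusted p = 0.0528). Slc25a28, mitoferrin-2, the carrier used outside the erythroid lineage, was also lower (log2 fold change -0.38, SE 0.0990; edgeR adjusted p = 0.00394). The ratio of Slc25a37 to Slc25a28 per kilobase had a median of 1.42 in CTRL and 1.46 in CML 2wk, so the balance of the mitoferrins overlapped between the groups.

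Alas1 (ENSMUSG00000032786), the housekeeping 5-aminolevulinate synthase, was the other gene with a large rise. The CTRL libraries lay close together, with the lowest at 75.1, the median at 84.5 and the highest at 88.6 CPM. The CML 2wk libraries ran from 123 through a median of 195 to 246 CPM, all above CTRL, with replicates 4 and 5 the lowest and replicates 1 and 2 the highest. The mean rose from 84.0 ± 4.84 to 190 ± 52.8 CPM (SD, n = 6 each), a 2.26-fold difference. The log2 fold change was 1.18 (SE 0.153, 95% interval 0.85 to 1.5; edgeR adjusted p = 1.23e-05), larger than that of 93.6% of all genes tested.

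Alas2, the erythroid counterpart, gave no such difference. Its range was 3.74 to 11.2 CPM in CTRL and 5.22 to 7.30 CPM in CML 2wk, and its log2 fold change was -0.40 (SE 0.216; edgeR adjusted p = 0.124). Per kilobase, Alas1 exceeded Alas2 by a ratio of 2.98 to 9.23 in CTRL (median 3.74) and of 7.13 to 16.4 in CML 2wk (median 13.4). These ranges overlapped because of CTRL replicate 3, where Alas2 was at its lowest. Alas1 was thus the more abundant synthase mRNA per kilobase of exon in all 12 libraries.

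**Figure D2:**
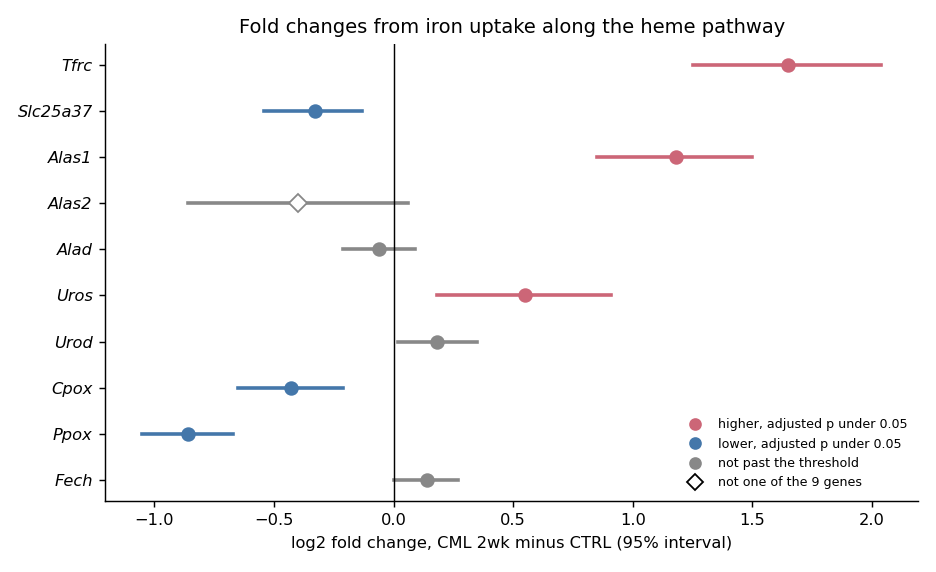
Log2 fold change of CML 2wk minus CTRL with its 95% interval (edgeR, n = 6 per group) for the iron uptake genes and the heme synthesis enzymes in the order of the pathway; the open diamond is Alas2, which is not among the 9 genes. Higher genes (red) were Tfrc, Alas1 and Uros, and lower genes (blue) were Slc25a37, Cpox and Ppox; Tfrc was at 1.65 and Ppox at -0.86.

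Of the cytosolic steps, Uros was higher, and Alad and Urod did not pass the threshold. Alad (ENSMUSG00000028393), which joins molecules of 5-aminolevulinate to porphobilinogen, was at 32.1, 33.9 and 37.7 CPM in the lowest, median and highest CTRL libraries and at 29.2, 33.9 and 35.6 CPM in those of CML 2wk. The medians were equal at this precision, and the interval of the log2 difference ran from -0.21 to 0.09 (edgeR adjusted p = 0.493).

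Uros (ENSMUSG00000030979), which closes the tetrapyrrole ring, had the lowest counts of the 9 genes, 238 in the lowest library. Its lowest, median and highest values were 8.93, 10.2 and 11.8 CPM in CTRL and 10.3, 14.4 and 22 CPM in CML 2wk. The groups overlapped, with 4 CML 2wk libraries above all of CTRL and replicates 2 and 5 within its range. The log2 fold change was 0.55 (SE 0.171, 95% interval 0.18 to 0.91; edgeR adjusted p = 0.0127). Replicate 6 was the highest CML 2wk library, and without it the log2 fold change was 0.39 (edgeR adjusted p = 0.0336).

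Urod (ENSMUSG00000028684), which decarboxylates uroporphyrinogen, stood at 33.4, 35.8 and 40.4 CPM in CTRL and 33.8, 43.0 and 44.4 CPM in CML 2wk (lowest, median and highest). Of the CML 2wk libraries, 4 were above all of CTRL and replicates 2 and 5 were not. The log2 difference of 0.18 (SE 0.0785, 95% interval 0.02 to 0.35) narrowly missed the threshold (edgeR adjusted p = 0.0572). It passed without CML 2wk replicate 5 (0.23, edgeR adjusted p = 0.00883), without CTRL replicate 5 (0.21, edgeR adjusted p = 0.0464) and with upper-quartile scaling (0.26, edgeR adjusted p = 0.00796).

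The mitochondrial enzymes that oxidise the ring were lower. Ppox (ENSMUSG00000062729), which makes protoporphyrin, had CTRL values of 26.6, 27.7 and 35.9 CPM and CML 2wk values of 15, 16.1 and 18.0 CPM (lowest, median and highest). Every CML 2wk library was below every CTRL library, and the mean fell from 29.4 ± 3.59 to 16.2 ± 1.12 CPM (SD, n = 6 each). The log2 fold change was -0.86 (SE 0.0882, 95% interval -1.05 to -0.67; edgeR adjusted p = 1.35e-06). Of all genes tested, 90.8% had a larger log2 fold change. In the GRCm38 gene models, 17.5% of the exon bases of Ppox are also exon of B4galt3 on the opposite strand, which was itself lower (log2 fold change -0.48; edgeR adjusted p = 0.000327). The strand setting of the counting is not given in the sources used here, so reads of the shared bases cannot be told apart.

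Cpox (ENSMUSG00000022742), the coproporphyrinogen oxidase that precedes Ppox, moved the same way by less. Its lowest, median and highest values were 33.6, 40.4 and 43.1 CPM in CTRL and 22.6, 30.7 and 34.8 CPM in CML 2wk. All CML 2wk libraries other than replicate 6 were below all of CTRL. The log2 fold change was -0.43 (SE 0.104, 95% interval -0.65 to -0.21; edgeR adjusted p = 0.00241).

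Fech (ENSMUSG00000024588), which inserts iron into protoporphyrin, was at 41.3, 43.2 and 49.2 CPM in CTRL and at 45.0, 48.9 and 52.8 CPM in CML 2wk (lowest, median and highest). The groups overlapped, with 3 CML 2wk libraries above all of CTRL. The log2 difference was 0.14 (SE 0.0620, 95% interval 0.00 to 0.27; edgeR adjusted p = 0.0699). It passed the threshold without CTRL replicate 5 (0.16, edgeR adjusted p = 0.0444), without CML 2wk replicate 6 (0.15, edgeR adjusted p = 0.0486) and with upper-quartile scaling (0.21, edgeR adjusted p = 0.00783). The chain from Alas1 to Fech therefore held higher, lower and uncalled members side by side, and its final enzyme moved little.

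Levels were compared between genes as CPM per kilobase of exon. In CTRL the order was Tfrc at 20.9, Alad at 18.3, Slc25a37 at 16.6, Urod at 14.1, Alas1 at 13.6, Ppox at 6.50, Cpox at 5.95, Fech at 3.21 and Uros at 2.87. Ranges over the libraries overlapped between all neighbours in this order except Alas1 against Ppox and Cpox against Fech. In CML 2wk the order was Tfrc at 65.4, Alas1 at 30.7, Alad at 17.5, Urod at 16.0, Slc25a37 at 13.2, Cpox at 4.41, Uros at 4.19, Ppox at 3.58 and Fech at 3.53. Tfrc was separate from Alas1, Alas1 from Alad, and Slc25a37 from Cpox, while the ranges of the other neighbours overlapped. Alas1 thus went from the fifth place to the second, and Ppox from the sixth to the eighth. These lengths join all annotated exons of a gene, 13838 bases for Fech. With the median length of the coding transcripts instead, a choice made after seeing the data, Tfrc kept the top place in both groups and Alas1 was second in both.

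The 9 genes together summed to 494 to 526 CPM in CTRL and 669 to 1140 CPM in CML 2wk. This sum follows Tfrc, with means of 129 and 404 CPM, and Alas1, with means of 84.0 and 190 CPM. It does not describe the 9 genes as a group, of which 3 were lower and 3 did not pass the threshold. Libraries of CML 2wk differed more from each other: the coefficient of variation over libraries was higher in CML 2wk for 7 of the 9 genes, with a median of 8.18% in CTRL and 16.2% in CML 2wk. Over all genes tested the medians were 10.1% and 21.1%, so the 9 genes followed the rest of the transcriptome in this. Tfrc went from 9.25% to 35.1%, Alas1 from 5.76% to 27.9% and Slc25a37 from 5.06% to 18.9%, and Uros reached 30.2% in CML 2wk. Ppox (12.2% to 6.94%) and Fech (7.25% to 5.26%) were the exceptions, with tighter values in CML 2wk.

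Genes whose log2 CPM varied most like a member over the 12 libraries, once the mean of each group had been subtracted, were sought among 10153 genes. For Alas1 they were Tmx4 (Pearson r 0.98, Spearman rho 0.853), Atp6v1a, a subunit of the vacuolar proton pump (0.972 and 0.867), and Ift27 (0.959 and 0.888). For Tfrc the closest was AC091309.4 (0.887 and 0.853), followed by Srsf11, a splicing factor, and Rufy1. For Slc25a37 the closest was Ccdc57 (0.921 and 0.72), and for Fech it was Fkbp9 (0.851 and 0.895), with Bpgm, the bisphosphoglycerate mutase of red cells, in the third place (0.842 and 0.867). These values are a description, since the libraries also share their depth and makeup and the highest of many correlations were taken.

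Promoters were read from RefSeq windows (GRCm38.p6) for the 7 members that the table holds, Fech and Slc25a37 being the others. In the 250 bases before each start, both strands were searched for the E-box CACGTG, the NRF1 core GCATGCG, the GATA motifs AGATAA and TGATAA, the AP-1 motif TGAGTCA, the hypoxia response motif ACGTGC and the STAT5 motif TTCNNNGAA. The E-box and ACGTGC overlap by 5 letters. Alas1, Tfrc and Cpox are shown because the first pair rose most and Cpox fell, and each holds a match. The 30 bases of Alas1 lie at chr9:106247906-106247935 on the minus strand and hold the NRF1 core, which 3.02% of all 32851 windows hold. The core is in capitals as read on the other strand, and from the next base on it also reads on the printed strand. The 30 bases of Tfrc lie at chr16:32608882-32608911 on the plus strand and hold ACGTGC in capitals, which 4.92% of windows hold. The 250 bases before the start of Cpox lie at chr16:58669958-58670207 on the plus strand, with a GATA motif in capitals on the other strand, which 16.6% of windows hold.
Alas1: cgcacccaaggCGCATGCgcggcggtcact
Tfrc: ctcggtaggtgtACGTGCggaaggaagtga
Cpox: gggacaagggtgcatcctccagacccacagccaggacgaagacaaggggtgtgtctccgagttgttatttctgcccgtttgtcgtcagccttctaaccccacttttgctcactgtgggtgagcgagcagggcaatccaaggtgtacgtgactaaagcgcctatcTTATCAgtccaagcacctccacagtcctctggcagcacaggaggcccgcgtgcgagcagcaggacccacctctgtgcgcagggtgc

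The CACGTG E-box was in 4 of 11 member windows and in 6.02% of all windows. These windows belong to 3 members (Alad, Uros and Urod), and those of Alad overlap each other. Another window of Alas1 held the STAT5 motif (7.02% of windows), another window of Uros a GATA motif, and no member window held the AP-1 motif (4.46%). The window of Ppox, the gene that fell most, held none of these letters. A match is a description of the sequence and no evidence of binding.

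Beyond the 9 genes, 54 genes of 5 lists on heme and iron were tested, and 18 were higher, 13 were lower and 23 did not pass the threshold. Their median log2 fold change was 0.01. Beside these counts and those of the lists below, 30.6% of all genes tested were higher and 29.0% were lower. Of 12 other genes of heme synthesis and transport, 6 were higher and 3 lower. Tmem14c, which moves protoporphyrinogen into the mitochondrial matrix, rose most, from 51.7 ± 4.93 to 112 ± 19.6 CPM (log2 fold change 1.12, SE 0.104; edgeR adjusted p = 5.7e-07). Flvcr1, a heme exporter, was higher by 0.65 on the log2 scale (SE 0.0892; edgeR adjusted p = 1.95e-05). Slc48a1, which releases heme from lysosomes, Abcg2, an exporter of porphyrins, and Slc25a39, a mitochondrial carrier, were lower, with log2 fold changes of -0.37, -0.34 and -0.20. Of 4 genes of heme breakdown, the biliverdin reductases moved apart: Blvra was higher (log2 fold change 0.79, SE 0.124; edgeR adjusted p = 6.84e-05) and Blvrb lower (log2 fold change -0.91, SE 0.159; edgeR adjusted p = 0.000189). The heme oxygenases Hmox1 and Hmox2 did not pass.

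Of 15 other iron handling genes tested, 2 were higher, 5 were lower and 8 did not pass. The higher genes were Hfe and Slc39a8, an importer of zinc, manganese and iron (log2 fold change 0.89, SE 0.0814; edgeR adjusted p = 4.87e-07). The lower genes included Tfr2, Slc25a28 and Pcbp1, a chaperone that delivers iron to ferritin (log2 fold change -0.46, SE 0.0594; edgeR adjusted p = 1.06e-05). The ferritin chains Fth1 (415 ± 41.4 CPM in CTRL) and Ftl1 (179 ± 16.0 CPM in CTRL) did not pass the threshold; in CML 2wk they were at 452 ± 55.2 and 203 ± 36.2 CPM. Of 9 iron and heme sensors, Fbxl5 was higher, and Bach1, the heme-binding repressor (log2 fold change -0.45, SE 0.0778; edgeR adjusted p = 0.000157), and Eif2ak1, the heme-regulated translation kinase (log2 fold change -0.40, SE 0.0760; edgeR adjusted p = 0.000404), were lower.

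Iron-sulfur clusters are the other main product made from mitochondrial iron. Of 14 tested genes of their assembly, 8 were higher and 2 were lower, with a median log2 fold change of 0.30. Among all genes tested, 30.6% were higher and 29.0% were lower. Bola3, a late-acting assembly factor, rose from 20.0 ± 0.828 to 41.1 ± 8.51 CPM (log2 fold change 1.04, SE 0.116; edgeR adjusted p = 3.04e-06). Glrx5, a glutaredoxin that carries new clusters, was also higher (log2 fold change 0.75). Iba57 (log2 fold change -0.72) and Fdxr, the ferredoxin reductase (log2 fold change -0.33), were the lower pair.

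**Figure D3:**
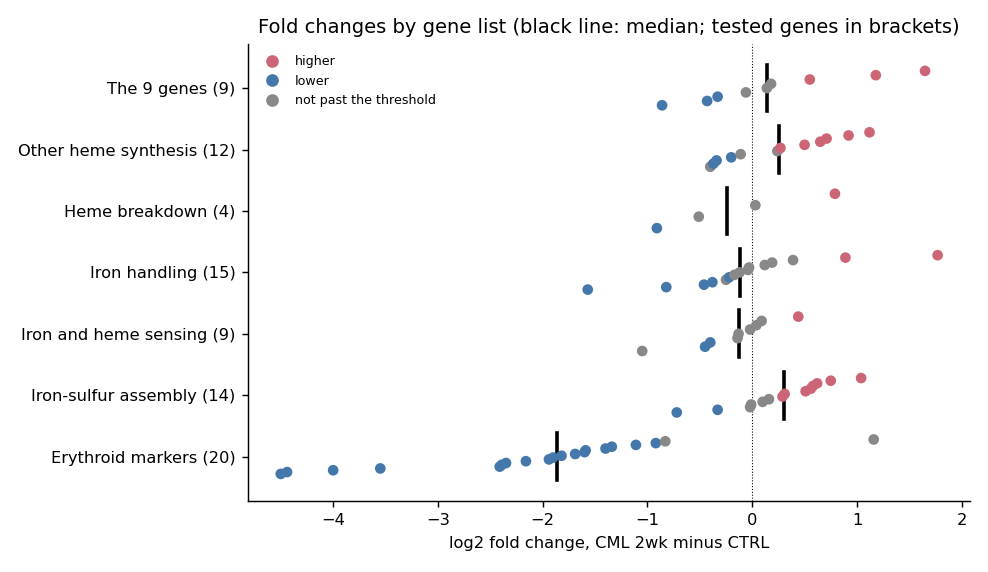
Log2 fold change of CML 2wk minus CTRL (edgeR, n = 6 per group) for each tested gene of the lists, red where higher, blue where lower and grey where the threshold was not passed; black lines mark medians. Heme and iron lists spread to both sides of 0 with medians from -0.24 to 0.30, whereas 18 of 20 erythroid markers were lower, with a median of -1.86.

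Erythroid cells are the main users of heme and iron in bone marrow, and most of their markers were lower in CML 2wk. Of 20 erythroid markers tested, 0 were higher and 18 lower by edgeR, against 30.6% and 29.0% of all genes tested. The counts by DESeq2 were also 0 and 18. At an unadjusted p under 0.05, 1 was higher with either tool, Hbb-bt, a beta-globin (edgeR log2 fold change 1.16, adjusted p = 0.0629). Their summed level was 539 to 748 CPM in CTRL and 138 to 226 CPM in CML 2wk. Most of this sum in every library was Car2, a carbonic anhydrase, at 313 to 425 CPM in CTRL and 79.2 to 161 CPM in CML 2wk. Gata1, the erythroid and megakaryocytic transcription factor, fell from 18.4 ± 2.73 to 5.20 ± 1.60 CPM, and Klf1, the erythroid Kruppel-like factor, from 7.24 ± 1.40 to 1.41 ± 0.517 CPM. Icam4 had 0 counts in each of the 12 libraries, where up to 3 counts per library could have been missed. In bulk samples such as these, fewer cells of a type and less RNA per cell cannot be told apart. The part of erythroid cells in the changes of Tfrc, Alas1, Uros, Ppox, Cpox and Slc25a37 was not tested.

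**Figure D4:**
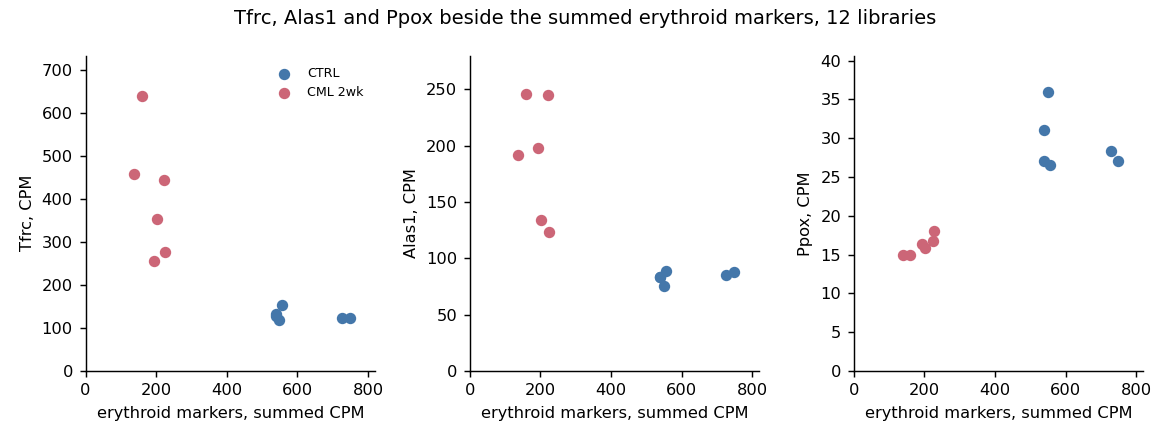
CPM of Tfrc, Alas1 and Ppox against the summed CPM of the erythroid markers in the 12 libraries, CTRL in blue and CML 2wk in red; all axes start at 0. The CML 2wk libraries lie at 138 to 226 CPM of erythroid markers, below the 539 to 748 CPM of CTRL, with higher Tfrc and Alas1 and lower Ppox. Car2 makes up most of the summed erythroid markers in every library.

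Other cell types and the state of the libraries also moved between the groups. Mast cell and basophil markers (6 of 8 higher) summed to 99.4 to 198 CPM in CTRL and 424 to 2480 CPM in CML 2wk, and cell cycle genes to 5320 to 6370 and 3810 to 4770 CPM, with 4 of 15 higher and 9 lower. Megakaryocyte markers, all 7 of those tested, were lower and summed to 348 to 435 CPM in CTRL and 111 to 275 CPM in CML 2wk. Of 9 granulocyte markers, 4 were higher and 4 lower, with sums of 2320 to 4650 CPM in CTRL and 3110 to 8530 CPM in CML 2wk. The higher markers included the primary granule proteases Ctsg (7.47-fold), Prtn3 (3.9-fold) and Elane (2.73-fold), each without overlap and in the direction of Tfrc and Alas1, and the lower ones were Ngp, Ltf, Camp and S100a9. Of 10 macrophage markers 2 were lower (sums 99.4 to 133 and 62.4 to 167 CPM), and of 6 B cell markers 2 were lower (sums 30.1 to 113 and 26.2 to 87.1 CPM). The markers of the sorted fraction were present in every library, but 7 of 9 were lower and their sum was 2390 to 2770 CPM in CTRL and 1410 to 1820 CPM in CML 2wk. Stromal markers reached 3060 CPM in CML 2wk replicate 2 and 624 in replicate 4, against 96.8 to 208 CPM elsewhere. Without both of these libraries the log2 fold changes were 1.71 for Tfrc, 1.18 for Alas1, 0.63 for Uros, -0.30 for Slc25a37, -0.48 for Cpox and -0.92 for Ppox, each past the threshold. The part of the other markers in the results was not tested.

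Total counts ran from 22804754 to 41832868 in CTRL and from 16150817 to 25070105 in CML 2wk, and mitochondrial genes took 0.816% to 1.288% and 2.258% to 2.973% of them. The labels give the sex as male for CTRL and female for CML 2wk, so labelled sex and group cannot be told apart. Xist, however, was at 3790 to 4420 CPM in CTRL and 2170 to 3490 CPM in CML 2wk. Ddx3y reached 24 counts in the highest CTRL library and 2 in the next, and 202 and 21 in those of CML 2wk. High Xist with little Ddx3y in both groups does not show the labelled difference in sex. It shows little sign of male cells, although the donor pool is described as of both sexes. Library numbers formed separate runs for replicates 1 to 5 of each group and neighboured each other for replicate 6 only. In that pair the ratio of CML 2wk to CTRL was 1.93 for Tfrc, 2.37 for Alas1, 2.04 for Uros, 0.754 for Slc25a37, 0.865 for Cpox and 0.605 for Ppox, each in the direction of the full comparison. Over replicates 1 to 5 alone the log2 fold changes of these 6 genes were 1.77, 1.17, 0.43, -0.31, -0.47 and -0.88 in the same order, all past the threshold.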

How the data were processed

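RNA of sorted donor LSK cells was sequenced (Kapa RNA HyperPrep, paired-end). The deposited values are raw counts per Ensembl gene for each of 12 libraries, made by the authors. The submitters' processing notes name FastQC 0.11.9, fastp 0.23.2, STAR 2.7.10a, featureCounts 2.0.1, DESeq2 1.36.0 and the mouse build GRCm39 (mm39), whereas the study's methods name Trim Galore!, HISAT2 and a human build. Annotation release, strand setting and the treatment of multimapping reads are not given in the sources used here. Human BCR::ABL1 was not counted. Every pair of libraries in a group differed by more than sampling noise, with a chi-square over its degrees of freedom of at least 3.777.

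Of 56748 identifiers, 52073 were matched to symbols through GENCODE vM21 (GRCm38), which also gave exon lengths and overlaps; RefSeq (GRCm38.p6) gave promoters. No coordinates were converted. Symbols of 151 of 153 genes on the lists were matched. The 9 genes and all lists were chosen with earlier results of these data known. Pathway genes named were Alas2, Slc25a28, Tfr2 and, per list, up to 3 called genes each way with the largest fold change and a mean log2 CPM of at least 1; genes most like a member needed a mean of at least 3. Aco1, Ireb2, Hmox1, Hmox2, Fth1, Ftl1, B4galt3 and single markers are named for their role or overlap, chosen after their values were seen. Some genes that this rule names are not reported here.

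Tests used edgeR 4.0.16 (R 4.3.3; filterByExpr, TMM factors, quasi-likelihood, Benjamini-Hochberg over 18438 genes, threshold 0.05) without covariates, and were tested on simulated data. The study's methods name DESeq2 for bulk RNA-seq in general and state no covariate. CPM used total counts times TMM factors, and log2 CPM a prior count of 2. Alternatives were DESeq2 1.42.0 (size factors, test), upper-quartile factors, no filter, a replicate block, and left-out libraries. Python 3.11.15 and matplotlib 3.10.9 were used for summaries and plots. At least 238 counts lay behind each value of the 9 genes, and for the lowest of them, Uros and Ppox, counting error adds to the spread between libraries.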

Additional observations from a re-analysis of the deposited data

Results flagged for a closer look

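In 34 groups of 6 values (the 9 genes and the sums of 8 cell type marker lists, each in CTRL and in CML 2wk), 6 had a library far from the rest by Dixon's criterion, where chance gives about 1 in 20, or 1.7. Among the 9 genes it was Slc25a37 in CML 2wk replicate 3, at 109 CPM against 77.5 CPM in the next library. CML 2wk replicate 2 was the highest for the summed megakaryocyte markers (275 CPM, next 165), the macrophage markers (167 CPM, next 97.4), the mast cell and basophil markers (2480 CPM, next 1020) and the stromal markers (3060 CPM, next 624). CTRL replicate 4 was the highest for the granulocyte markers (4650 CPM, next 2960). None of the 9 genes stood apart in CML 2wk replicate 2, where Tfrc was at 443 and Alas1 at 245 CPM.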

How the results depend on the processing

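The log2 fold changes of Tfrc (1.47 to 1.77), Alas1 (1.08 to 1.27), Uros (0.39 to 0.63), Cpox (-0.50 to -0.36) and Ppox (-0.93 to -0.79) kept their direction and stayed past the threshold under all 19 alternatives. Upper-quartile factors, which shifted the median of all genes by 0.0744, gave 5 higher genes in place of 3: Urod (0.26) and Fech (0.21) passed, Slc25a37 (-0.26) no longer did, and Alad turned from -0.06 to 0.02, not past the threshold either way. Leaving out single libraries gave 3 to 5 higher genes and 3 lower genes; the count was 5 without CTRL replicate 5, which brought in Urod (0.21) and Fech (0.16). Over these fits Urod ranged from 0.15 to 0.23, the highest without CML 2wk replicate 5, and Fech from 0.10 to 0.16, passing also without CML 2wk replicate 6. Heme and iron genes of the lists numbered 17 to 22 higher and 12 to 17 lower. The replicate numbers did not pair the libraries: the deviations of same-numbered libraries correlated at -0.125 to 0.068, and 1 of 6 numbers matched its own partner best. With the replicate block, 9975 of 18438 genes passed in place of 10976, and the 9 genes again gave 3 higher and 3 lower. Rank by level per kilobase depends on the length used: with the median coding transcript, Cpox was last in both groups. With 6 libraries per group, the 95% intervals of Urod (0.02 to 0.35) and Fech (0.00 to 0.27) do not settle whether these genes differed.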
